A study of Mus musculus with 24 samples.

Results

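Cyclic nucleotide phosphodiesterases hydrolyse cAMP and cGMP, and 10 genes of the family were followed through the striatum of R6/1 and wild type mice. They were found by gene symbol among the 24340 genes that the 6 deposited tables share, and all 10 were present in every table (Pde1a, Pde1b, Pde1c, Pde2a, Pde4a, Pde4b, Pde4d, Pde7b, Pde8b and Pde10a). Striatal RNA came from 24 mice, of which 5 were WT-vehicle, 6 R6/1-vehicle, 6 WT-RGFP109 and 7 R6/1-RGFP109. R6/1 mice carry exon 1 of the human huntingtin gene with an expanded CAG repeat as a hemizygous transgene on a C57BL/6J background, so that the protein is a fragment and mouse huntingtin remains, and all animals were male. RGFP109, an inhibitor of HDAC1 and HDAC3, was given intraperitoneally at 30 mg/kg on 5 days per week for 3 weeks. Control mice of both genotypes received the dimethyl sulfoxide and saline vehicle on the same schedule. Injections began at an age of 11 to 14 weeks, and tissue was taken 18 h after the last dose, at 14 to 17 weeks.

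In medium spiny neurons, the projection neurons that make up most of the striatum, dopamine and adenosine receptors set the rate of cAMP synthesis, and phosphodiesterases set how long the signal lasts. Pde10a and Pde1b are enriched in these neurons. Enzymes of the Pde1, Pde2 and Pde10 families hydrolyse both cAMP and cGMP, whereas those of the Pde4, Pde7 and Pde8 families are specific for cAMP.

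Each deposited table gives 1 FPKM value per group (a level per length, with fragments divided by the length of the transcript and by the mapped total) and no value per mouse. Values per mouse that the study lists for some genes in its supplement were not used here, so the spread between mice was not measured, no difference below could be set against it, and no p-value is given. FPKM values of the 4 groups were brought to 1 scale, that of the table for R6/1-vehicle and WT-vehicle. A log2 ratio was taken between the groups of 1 table after adding 0.05 FPKM, and a gene was counted as past the threshold when its ratio exceeded 0.5 in size (1.41-fold). In bulk striatum, fewer cells of a type and less RNA per cell cannot be told apart.

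In vehicle-treated mice 7 of the 10 genes had lower values in R6/1 mice, and the 3 past the threshold were the 3 with the highest level in WT-vehicle. Pde10a stood at 0.347 times its WT-vehicle value, Pde1b at 0.466 times and Pde2a at 0.691 times. The other 7 genes stayed within the threshold, and none was higher past it. Of all 16972 genes over 0.1 FPKM in at least 1 of these groups, 13.4% were lower and 5.84% higher past the threshold, and 3 of the 10 phosphodiesterase genes were lower. The median log2 ratio was -0.30 over the 10 genes and -0.02 over all genes.

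**Figure D1:**
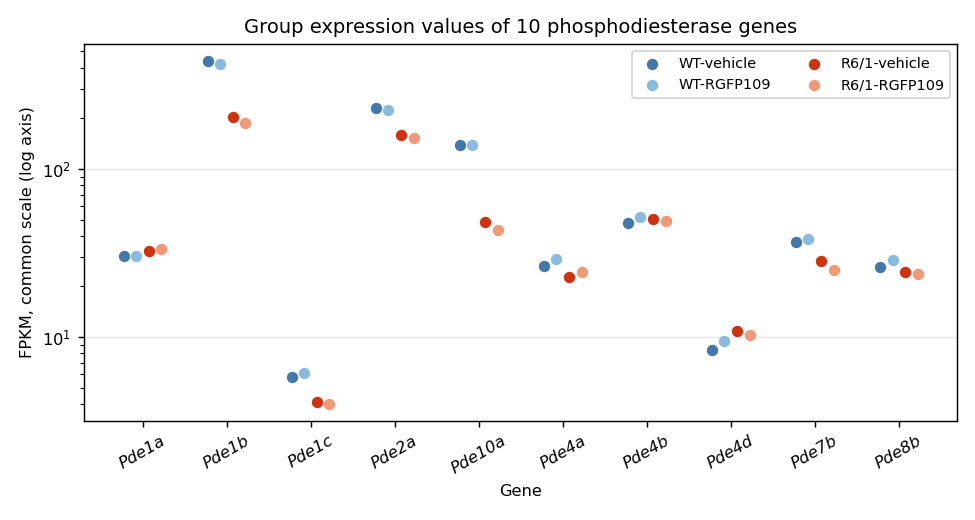
Group FPKM of the 10 phosphodiesterase genes on a common scale (log axis), 1 point per group and gene, with no error bar because the tables hold 1 value per group. Pde10a lies at 138.9 and 139.1 FPKM in the wild type groups and at 48.12 and 43.39 FPKM in the R6/1 groups, whereas the 4 points of Pde4b lie between 47.90 and 51.99 FPKM.

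Pde10a, on chromosome 17 of mm10 from 8526801 to 8986648, encodes a phosphodiesterase concentrated in medium spiny neurons. It had 138.9 FPKM in WT-vehicle, 139.1 in WT-RGFP109, 48.12 in R6/1-vehicle and 43.39 in R6/1-RGFP109. Both R6/1 values lay far below both wild type values, and the wild type values nearly coincided. The log2 ratio was -1.53 between the vehicle groups, rank 291 from the lowest of 16972 genes, and -1.68 between the RGFP109 groups, rank 230 of 16954. By level, Pde10a had rank 3 of the 10 genes in both wild type groups and rank 4, just behind Pde4b, in both R6/1 groups.

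Of the 250 bases before an annotated start, those of Pde10a, Pde1b and Pde2a, the genes with the lowest ratios in the vehicle groups, are shown beside those of Pde4b, whose level hardly differed between groups. They are RefSeq sequence of GRCm38.p6 (mm10), plus strand, and each is 1 of several annotated starts of its gene. Pde10a has 2 such windows, Pde1b 3, Pde2a 5 and Pde4b 4. For each gene the window shown is the only 1 of these that holds a marked motif, so the display is not typical of its windows. The loci given here for Pde10a and Pde4b begin further upstream, at 8526801 and 102254742, and those starts have no window. FPKM values are sums over the transcripts of a gene, so the starts in use were not measured. Capitals mark GC boxes (GGGCGG on either strand) and CRE half-sites (TGACG on either strand, the core of the element that CREB binds in cAMP-regulated genes).
Pde10a, chr17:8801495-8801744: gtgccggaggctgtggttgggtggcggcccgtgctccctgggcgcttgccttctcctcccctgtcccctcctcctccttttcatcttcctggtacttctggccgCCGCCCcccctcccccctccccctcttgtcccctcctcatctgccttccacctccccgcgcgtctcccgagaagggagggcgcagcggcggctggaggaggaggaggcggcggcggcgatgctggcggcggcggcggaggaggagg
Pde1b, chr15:103502784-103503033: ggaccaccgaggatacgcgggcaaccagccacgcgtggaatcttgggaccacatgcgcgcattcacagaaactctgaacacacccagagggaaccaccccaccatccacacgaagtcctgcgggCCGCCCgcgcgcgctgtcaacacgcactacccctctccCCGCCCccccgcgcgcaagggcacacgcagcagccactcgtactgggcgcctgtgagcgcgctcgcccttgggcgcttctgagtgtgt
Pde2a, chr7:101451002-101451251: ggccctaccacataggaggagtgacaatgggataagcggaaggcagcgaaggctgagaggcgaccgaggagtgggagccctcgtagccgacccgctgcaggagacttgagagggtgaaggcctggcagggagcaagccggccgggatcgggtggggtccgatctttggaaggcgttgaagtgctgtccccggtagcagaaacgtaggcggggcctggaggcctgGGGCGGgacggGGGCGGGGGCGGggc
Pde4b, chr4:102421305-102421554: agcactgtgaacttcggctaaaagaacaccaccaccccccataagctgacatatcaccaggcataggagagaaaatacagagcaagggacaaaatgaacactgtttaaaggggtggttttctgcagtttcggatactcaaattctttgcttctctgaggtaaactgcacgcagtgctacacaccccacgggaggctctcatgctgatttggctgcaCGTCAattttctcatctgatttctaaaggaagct
The 10 genes had 31 such windows, which partly overlap. They do not cover every start, since the outer starts of the loci given for Pde10a, Pde4b and Pde7b have no window. The full CRE (TGACGTCA) was in 0 of them and in 1.55% of the 32851 windows of all genes. A half-site was in 3 of the 31 windows (9.68%), 1 each of Pde1a, Pde4a and Pde4b, and in 17.8% of all windows. A GC box was in 7 windows (22.6%), of 5 genes, and in 32.7% of all windows. None of these 3 motifs was in a larger share of the 31 windows than of all windows. The share of genes with a motif was not taken over all genes. Pde10a, Pde1b and Pde2a, with low R6/1 values, each had a window with a GC box, and so did Pde4a and Pde8b, which stayed within the threshold. These matches describe letters in a window, not bound sites.

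Pde1b, on chromosome 15 from 103503034 to 103530056, encodes the main calmodulin-activated phosphodiesterase of the striatum and had the highest level of the 10 genes in every group. It had 437.5 FPKM in WT-vehicle, 420.9 in WT-RGFP109, 204.0 in R6/1-vehicle and 186.8 in R6/1-RGFP109. Its R6/1 values were below its wild type values with either treatment, with a log2 ratio of -1.10 for vehicle and -1.17 for RGFP109. The paralogs encode calmodulin-binding enzymes as well. Pde1a, on chromosome 2 from 79834453 to 80129412, had 30.42 FPKM in WT-vehicle, 30.46 in WT-RGFP109, 32.55 in R6/1-vehicle and 33.17 in R6/1-RGFP109, slightly higher in both R6/1 groups (log2 ratios 0.10 and 0.12). Pde1c, on chromosome 6 from 56069804 to 56369634, was the lowest of the 10 genes at 5.754, 6.119, 4.115 and 4.023 FPKM in the same order of groups, with both R6/1 values below both wild type values, as for Pde1b. Its log2 ratios were -0.48 for vehicle and -0.60 for RGFP109, just inside and just outside the threshold. The level of Pde1b was 14.4 times that of Pde1a in WT-vehicle and 6.27 times in R6/1-vehicle.

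Pde2a, on chromosome 7 from 101421691 to 101512829, encodes the phosphodiesterase that cGMP stimulates, and was second by level in every group. It had 230.4 FPKM in WT-vehicle, 223.2 in WT-RGFP109, 159.2 in R6/1-vehicle and 151.9 in R6/1-RGFP109. The R6/1 values were lower with either treatment, and both log2 ratios, -0.53 for vehicle and -0.55 for RGFP109, lay just past the threshold. In the GENCODE M21 annotation, which is not the RefSeq annotation behind these FPKM values, 64.3% of the exonic bases of Pde2a also belong to Gm45837 on the same strand, and its part in the value was not tested.

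Of the 5 cAMP-specific genes, 0 passed the threshold between genotypes with vehicle and 1, Pde7b, with RGFP109. Over all genes 19.2% and 17.1% passed it in either direction, so with 5 genes these counts lie near the overall shares. Pde4b, on chromosome 4 from 102254742 to 102607262, encodes an enzyme expressed in neurons and glia and had 47.90 FPKM in WT-vehicle, 51.99 in WT-RGFP109, 50.32 in R6/1-vehicle and 49.19 in R6/1-RGFP109. Its log2 ratio was 0.07 for vehicle and -0.08 for RGFP109, so the sign differed between treatments. Pde4a, on chromosome 9 from 21165714 to 21226281, had 26.34, 29.10, 22.84 and 24.31 FPKM in the same order of groups, with ratios of -0.21 and -0.26. Pde4d, on chromosome 13 from 108654177 to 109955969, was the gene with the highest R6/1 ratio in the vehicle groups. It had 8.319 FPKM in WT-vehicle, 9.501 in WT-RGFP109, 10.87 in R6/1-vehicle and 10.22 in R6/1-RGFP109, with a log2 ratio of 0.38 for vehicle and 0.11 for RGFP109, both within the threshold.

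Pde7b, on chromosome 10 from 20398004 to 20725068, encodes a cAMP-specific enzyme found in the striatum. It had 36.97 FPKM in WT-vehicle, 38.45 in WT-RGFP109, 28.18 in R6/1-vehicle and 24.96 in R6/1-RGFP109. Both R6/1 values were below both wild type values, with a log2 ratio of -0.39 for vehicle, within the threshold, and -0.62 for RGFP109, past it. Pde8b, on chromosome 13 from 95024105 to 95250304, encodes an enzyme with high affinity for cAMP. Its values were 26.22, 28.80, 24.44 and 23.86 FPKM in the same order of groups, with log2 ratios of -0.10 and -0.27. An antisense gene in GENCODE M21, Gm48420, covers 7.60% of the exonic bases of Pde8b.

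**Figure D2:**
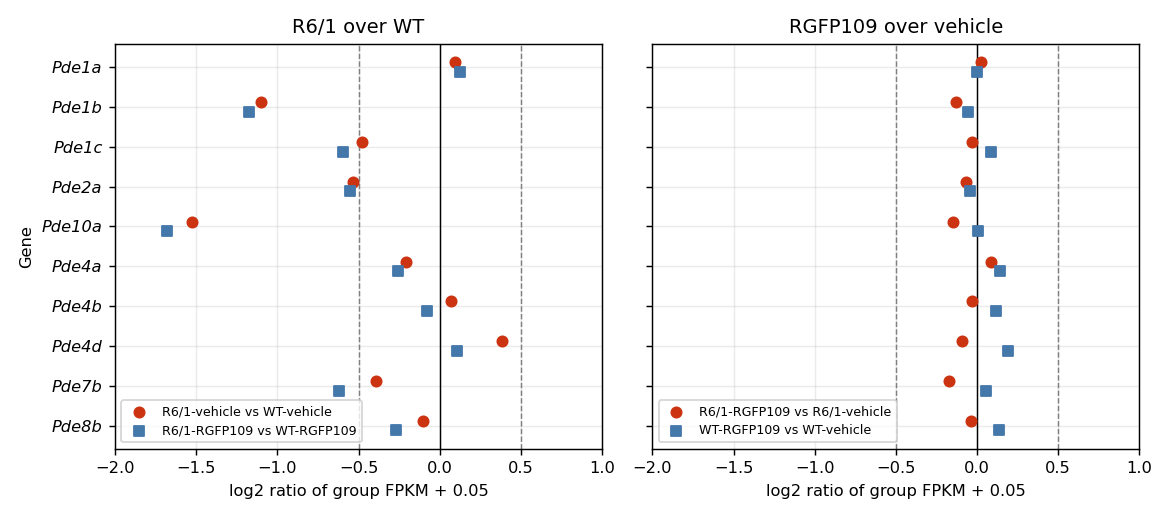
Log2 ratios of group FPKM for the 10 genes, R6/1 over wild type (left) and RGFP109 over vehicle (right), with dashed lines at the threshold of 0.5 in either direction. On the left Pde10a and Pde1b lie below -1 with either treatment, and on the right all points lie between -0.18 and 0.19.

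In the mice that received RGFP109, the genotypes were compared in libraries that the vehicle comparison did not use. There 5 of the 10 genes were lower in R6/1 mice past the threshold, against 11.7% of all 16954 genes, and 0 were higher, against 5.39%. They were the 3 genes of the vehicle comparison with Pde7b and Pde1c added, and the median over the 10 genes was -0.41. Across the 10 genes the ratios of both genotype comparisons had Pearson's r = 0.987 and Spearman's rho = 0.927. This is a description over genes that share length and base composition in both. Over all 16662 genes Pearson's r was 0.212, a value that includes many genes of low level. The 10 genes all stood at 4.023 FPKM or more, and no r was taken over genes of like level. The genotype ratio was lower with RGFP109 than with vehicle for 9 of the 10 genes, by a median of -0.14 in log2, where 47.6% of 16662 genes were lower and the median was 0.01. The difference was -0.28 for Pde4d and -0.23 for Pde7b, the largest of the 10 in size, and whether it exceeds the spread between mice was not tested. Among the projection neuron markers listed below, the same difference was below 0 for all but Adora2a (0.04), down to -0.38 for Pdyn. This difference comes from the same group values as the RGFP109 ratios below, so their signs are not independent of it.

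Summed over the 10 genes, expression was 988.8 FPKM in WT-vehicle and 977.7 in WT-RGFP109, against 584.6 in R6/1-vehicle and 551.9 in R6/1-RGFP109. Of the 404 FPKM between the vehicle groups, Pde1b made up 57.8%, Pde10a 22.5% and Pde2a 17.6%. The enzymes that hydrolyse both nucleotides (Pde1, Pde2 and Pde10) went from a sum of 843.1 FPKM in WT-vehicle to 447.9 in R6/1-vehicle, a log2 ratio of -0.91. The cAMP-specific enzymes (Pde4, Pde7 and Pde8) summed to 145.8 and 136.7 FPKM, a log2 ratio of -0.09. Their share of the total was 14.7% in WT-vehicle and 23.4% in R6/1-vehicle, and 16.1% and 24% in the RGFP109 groups. Pde10a had 2.90 times the level of Pde4b in WT-vehicle and 0.956 times in R6/1-vehicle.

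**Figure D3:**
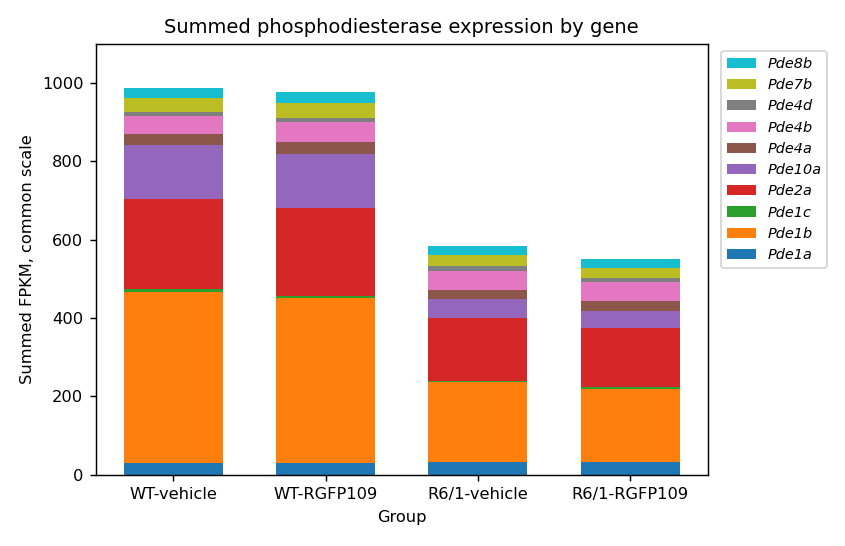
Summed FPKM of the 10 genes by group on a common scale, stacked by gene from 0. The R6/1 bars end at 584.6 and 551.9 FPKM and the wild type bars at 988.8 and 977.7 FPKM, and the Pde1b, Pde2a and Pde10a segments account for most of the gap.

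Between RGFP109 and vehicle the 10 genes differed by at most 0.19 in log2 in either genotype. In R6/1 mice 0 of the 10 passed the threshold between R6/1-RGFP109 and R6/1-vehicle, against 5.77% of 16840 genes. In wild type mice the count was 0 of 10 between WT-RGFP109 and WT-vehicle, against 8.11% of 16957 genes. Both shares over all genes include many of low level, and among genes with a mean of at least 1 FPKM they were 3% and 3.9%. In R6/1 mice 8 of the 10 ratios were below 0, from -0.18 for Pde7b and -0.15 for Pde10a to 0.09 for Pde4a. In wild type mice 8 of the 10 were above 0, up to 0.19 for Pde4d and 0.14 for Pde4a, and Pde10a was at 0.00. The 10% and 90% quantiles of all genes were -0.19 and 0.16 in R6/1 mice and -0.28 and 0.19 in wild type mice, and the 10 genes lay between them in both. Against WT-vehicle, which both comparisons share, the ratio of Pde10a was -1.53 in R6/1-vehicle and -1.68 in R6/1-RGFP109, and that of Pde1b -1.10 and -1.23.

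**Figure D4:**
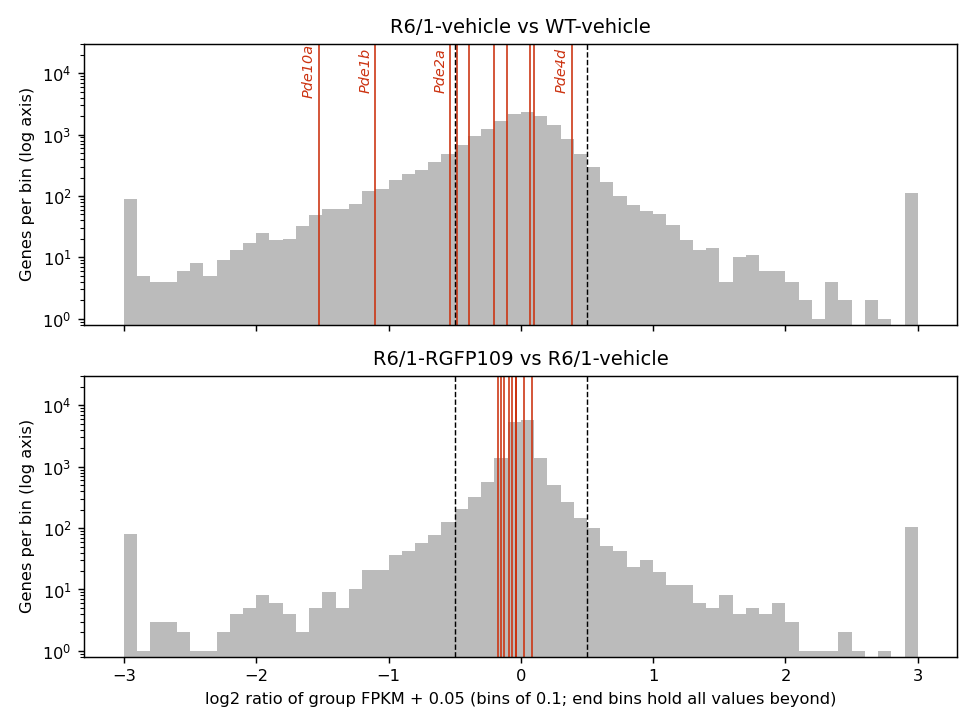
Number of genes per bin of the log2 ratio (log axis; bins of 0.1) for R6/1-vehicle vs WT-vehicle (top) and R6/1-RGFP109 vs R6/1-vehicle (bottom), with red lines at the 10 phosphodiesterase genes and dashed lines at the threshold of 0.5. Pde10a and Pde1b lie in the left tail at the top, at -1.53 and -1.10, and at the bottom all 10 lines lie between -0.18 and 0.09.

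A further 14 phosphodiesterase genes were looked up, and 12 of them passed 0.1 FPKM in a group of the vehicle pair. Their sum was 87.51 FPKM in WT-vehicle, so that the 10 genes above held 91.9% of the summed expression of all 24. Pde6d, which encodes a chaperone of prenylated proteins and not a catalytic subunit, was the highest, at 49.73 FPKM in WT-vehicle and 52.52 in R6/1-vehicle. Pde8a, the paralog of Pde8b, had 10.72 FPKM in WT-vehicle, 8.876 in WT-RGFP109, 6.172 in R6/1-vehicle and 6.577 in R6/1-RGFP109. It was past the threshold in the vehicle pair only, with log2 ratios of -0.79 and -0.43, and the difference between these ratios was not tested. Pde5a, a cGMP-specific enzyme, had 0.914 and 0.618 FPKM in the vehicle groups (log2 ratio -0.53). The photoreceptor genes Pde6b, Pde6g and Pde6h passed the threshold in some comparisons at levels below 1 FPKM in every group. Over the 12 genes the median was 0.02, with 3 lower and 1 higher past the threshold.

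Other genes of cyclic nucleotide signalling were grouped by role. Over all genes of the vehicle pair, 13.4% were lower and 5.84% higher past the threshold. Of the genes for receptors and G proteins upstream of cAMP, 6 of 9 were lower in R6/1-vehicle past the threshold and 0 higher, with a median of -0.74. Adora2a, the adenosine A2a receptor gene, had the lowest ratio, -1.97, followed by Gpr6, an orphan receptor of indirect-pathway neurons, at -1.51 and the dopamine receptor gene Drd2 at -1.25. Adora2a and Drd2 are also on the list of projection neuron markers below. The list of cyclase and other synthesis genes held 19 symbols, with Gucy1a1 and Gucy1b1 entered beside their older symbols Gucy1a3 and Gucy1b3. By symbol 17 were found, the older symbols among them, and 6 of the 16 over 0.1 FPKM were lower and 0 higher. Adcy5, the main striatal adenylyl cyclase gene, had 220.6 FPKM in WT-vehicle and 97.59 in R6/1-vehicle (log2 ratio -1.18), close to the ratio of Pde1b. Nos1, the neuronal nitric oxide synthase gene, was at -0.90 and Adcy1, a calmodulin-stimulated cyclase gene, at -0.88.
Of 16 effectors of cAMP and cGMP over 0.1 FPKM, 3 were lower and 0 higher past the threshold, with a median of 0.08. With 16 genes, these counts lie near the shares over all genes, 13.4% lower and 5.84% higher. Ppp1r1b, which encodes the protein kinase A target DARPP-32 and is a projection neuron marker too, was at -1.36, and Rapgef4, a cAMP-regulated exchange factor gene, at -0.60. The third, the channel gene Cnga2, was at or below 0.276 FPKM in all groups. Of 15 anchoring and partner genes 0 passed the threshold, and the widest ratios were 0.49 for Akap12, -0.31 for Akap5 and -0.29 for Akap13.
In the RGFP109 groups the counts lower in R6/1 mice were 6 of 9 receptor and G protein genes, 5 of 16 synthesis genes, 3 of 16 effectors and 1 of 15 anchoring genes, the last being Akap5 at -0.57, and 0 were higher. Over all genes 11.7% were lower and 5.39% higher there. Between RGFP109 and vehicle 0 genes of these lists passed the threshold in either genotype, against 5.77% of all genes in R6/1 and 8.11% in wild type mice.

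**Figure D5:**
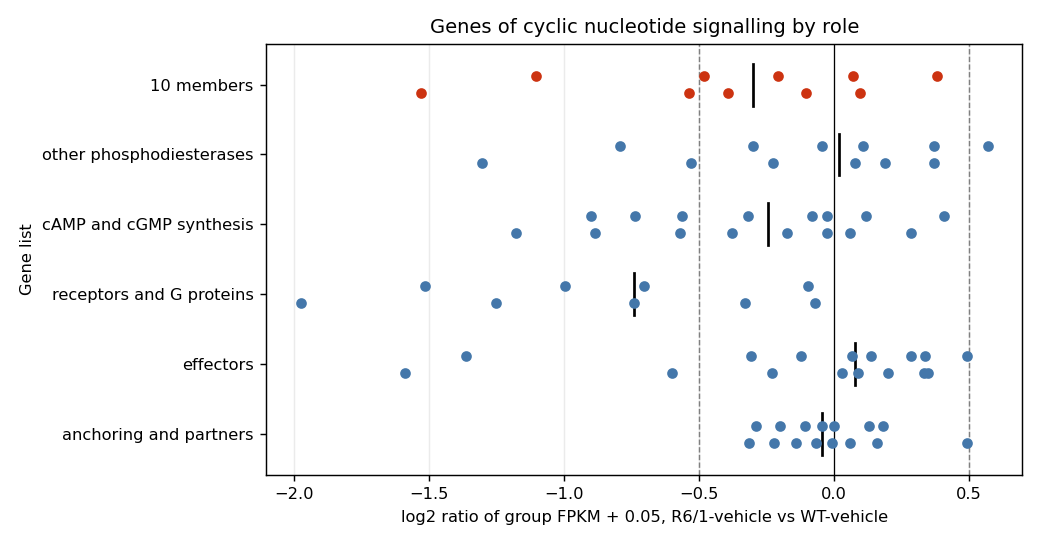
Log2 ratio of R6/1-vehicle vs WT-vehicle for genes of cyclic nucleotide signalling over 0.1 FPKM, 1 point per gene in rows by role, with the median of each row as a black bar and dashed lines at the threshold of 0.5. The 9 receptor and G protein genes have a median of -0.74, the 10 phosphodiesterase genes -0.30 and the 16 effectors 0.08.

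Genes with a pattern like that of Pde10a were sought among the genes with a mean of at least 10 FPKM, by the Euclidean distance between log2 ratios in the 4 comparisons of genotype and treatment. The nearest 5 were Rasgrp2 at a distance of 0.157, Rgs9 at 0.214, Gsg1l at 0.222, Arpp19 at 0.233 and Plk5 at 0.249. Pde1b, at 0.667, was number 48 in this order, and Pde2a, at 1.51, number 391.

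Marker genes of cell types moved with several of these comparisons, and their part in the results was not tested. Of 10 markers of striatal projection neurons, all of them detected, 7 were lower in R6/1-vehicle past the threshold (median -1.12) and 8 in R6/1-RGFP109 (median -1.27). Their summed level was 3280.9 and 3157.5 FPKM in the wild type groups and 1296.0 and 1163.5 in the R6/1 groups, and the ratios of Pde10a and Pde1b lay on either side of the marker median in the vehicle pair. Between R6/1-RGFP109 and R6/1-vehicle 0 of the 10 markers passed the threshold, all 10 ratios were below 0 and their median was -0.14, beside -0.15 for Pde10a and -0.13 for Pde1b. Of 5 interneuron markers 4 were lower in the vehicle pair (median -0.85). All 6 neocortical markers were lower in R6/1-vehicle past the threshold (median -0.72, summed 350.8 against 193.5 FPKM), and 0 of 6 in the RGFP109 pair (median -0.13, 323.5 against 246.2 FPKM). The RGFP109 pair minus the vehicle pair was -0.15 for Pde10a, -0.07 for Pde1b and -0.02 for Pde2a. Over the 10 phosphodiesterase genes it ran from -0.28 for Pde4d to 0.03 for Pde1a. Between R6/1-RGFP109 and R6/1-vehicle 3 of the 6 neocortical markers were higher past the threshold (median 0.47). All 5 choroid plexus markers were lower after RGFP109 past the threshold. Their median was -1.89 in R6/1 mice (23.33 to 9.003 FPKM summed) and -1.70 in wild type mice (39.93 to 14.41). The ratios of the 10 phosphodiesterase genes in these comparisons were between -0.18 and 0.19. In the vehicle pair the median was -0.35 for 5 astrocyte, -0.28 for 5 microglia and -0.27 for 5 endothelial and pericyte markers. Of 5 oligodendrocyte markers 3 were lower past the threshold in the vehicle pair (median -0.84, 4512.2 against 2503.9 FPKM summed) and 0 in the RGFP109 pair (median -0.33, 3516.4 against 2827.0 FPKM). All 5 were below 0 in WT-RGFP109 vs WT-vehicle (median -0.35) and above 0 in R6/1-RGFP109 vs R6/1-vehicle (median 0.18), with 0 past the threshold in either.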

How the data were processed

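RNA-seq of the striatum covered 24 mice in 4 groups named by the titles. Per the labels and the study's methods, the authors aligned single-end 51 bp reads to RefSeq transcripts of mm10 with STAR 2.5.0b, estimated FPKM values with Cufflinks 2.2.1 and compared groups in pairs with Cuffdiff. The deposited tables, 6 in all, hold 1 FPKM value per group, scaled within the pair; the value of a group for the 10 genes differed between its 3 tables by 3.05 to 3.96%. Their fold changes, test statistics, p-values and q-values are the authors' own comparisons and were not used. Depth per library is unknown.

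Log2 ratios were computed within a table after adding 0.05 FPKM, over genes above 0.1 FPKM in at least 1 of the 2 groups. For levels of all 4 groups, values of WT-RGFP109 were multiplied by 1.0354 and of R6/1-RGFP109 by 0.9975, the median ratios of WT-vehicle between tables. The calculation was tested on simulated data. The 10 genes, the gene lists and the threshold of 0.5 were chosen with earlier results of these data known. Named beside the 10 were other phosphodiesterase genes past the threshold or highest in FPKM, the 3 widest ratios of R6/1-vehicle vs WT-vehicle per role, and the 5 genes most like Pde10a. The result of 1 role is not reported here. Gm45837 and Gm48420 were named outside this rule, after their values or positions were seen. Coordinates are those of the tables with 1 added to the start. Promoter sequence came from RefSeq (31 windows matched, for all 10 genes) and exon overlaps from GENCODE M21. A design with values per library had been foreseen (limma), and it was not used because the tables hold 1 value per group. Alternatives covered the pseudocount, the filter, the threshold and the scaling. Computation was done with pandas 2.3.3, numpy 2.4.6 and scipy 1.17.1 under Python 3.11.15, and plots with matplotlib 3.10.9.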

Additional observations from a re-analysis of the deposited data

How the results depend on the processing

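All 160 log2 ratios of the 10 genes under the alternatives for pseudocount and scaling lay within 0.10 of the reported ones, and none that was past the threshold changed sign. The counts of the 10 genes moved only with the threshold. At a log2 ratio of 0.32, 5 were lower and 1 (Pde4d) higher in R6/1-vehicle vs WT-vehicle. Of all 16972 genes, 3653 were lower and 2108 higher there. At a log2 ratio of 1 only 2 (Pde10a and Pde1b) were lower in either genotype comparison, R6/1-RGFP109 vs WT-RGFP109 included. Over all genes, 755 of 16972 were then lower with vehicle and 628 of 16954 with RGFP109. Over all genes, the counts past the threshold in R6/1-vehicle vs WT-vehicle, R6/1-RGFP109 vs WT-RGFP109, R6/1-RGFP109 vs R6/1-vehicle and WT-RGFP109 vs WT-vehicle were 3266, 2892, 971 and 1376. In that order they were 1572, 1302, 371 and 441 with a pseudocount of 1 FPKM, 1950, 1681, 408 and 531 with a mean of at least 1 FPKM, 5761, 5029, 1755 and 2369 at a log2 ratio of 0.32, and 1050, 899, 388 and 550 at a log2 ratio of 1. Without a filter the counts for RGFP109 were 1483 in R6/1 and 2076 in wild type mice.

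No paired analysis was possible because the deposited tables hold 1 value per group, and for the same reason no library was left out. Values per mouse in the study's supplement were not used here. None of the differences was tested, including those of Pde2a and Pde1c close to the threshold.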
